A study of Homo sapiens with 6 samples.

Results

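The genes described here are 48 genes of the mitotic cell cycle, 19 that act at the G1/S transition and in DNA replication and 29 that act in G2 and mitosis. They were taken by name, by current or older symbol, from the 19775 genes represented on the array, and where several probe sets name a gene, the one of highest mean (6 arrays) stands for it. Of the 48, 40 had a mean of at least 5 on the log2 scale in at least 1 pool and are called detected (14 of 19 G1/S and replication genes and 26 of 29 G2/M genes), as did 7267 of all genes.

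The RNA came from xenografts of HT-29, a long-used line of human colorectal adenocarcinoma cells, grown in both femoral regions of Balb/c (nu/nu) mice, which lack mature T cells. A volume of 0.1 ml of cell suspension had been injected into mice aged 6 to 8 weeks. The treated pool held tumours heated by modulated electro-hyperthermia, an electromagnetic heat treatment, for 30 min on day 18, with tissue taken 4 h later. The opposite-side pool held the unheated tumours from the other side of the treated animals, and the control pool held tumours of control animals. RNA of a group was pooled, and the pool was measured on 2 arrays that are technical replicates per the labels. With 1 pool per group, differences between conditions could not be tested or checked across animals. The spread between the 2 arrays of a pool, technical only, is the error available, and the small number of arrays limits the precision. In such bulk RNA, fewer cycling cells and less RNA per cycling cell cannot be told apart.

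A cell that commits to division passes from G1 into S phase when cyclin D and cyclin E kinases release the E2F factors, which switch on the genes for replication. Origins are licensed by loading the MCM helicase with ORC, CDC6 and CDT1, and the helicase is started by CDC45 and GINS. The genes of G2 and mitosis are held down in quiescence and G1 by the DREAM complex, are switched on later by B-MYB with the MuvB core and by FOXM1, and encode cyclin B with CDK1, the spindle checkpoint, the kinetochore and the machinery of cytokinesis. In tumours, summed levels of such genes are used as a measure of proliferation.

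The 2 classes differed in the sequence of their promoters. The genes were taken by name, but such genes are known for control by E2F or DREAM, so this is no independent result. RefSeq promoters (GRCh38.p14, 250 bases before to 50 after the start) were at hand for 15 of the 19 G1/S and replication genes and 23 of the 29 G2/M genes. The cell cycle homology region bound by the DREAM complex, searched as TTTGAA or TTTAAA on both strands, was found in 17 of 23 G2/M promoters (73.9%) and 3 of 15 G1/S promoters (20.0%). The share among all 27305 promoters was 24.3%. Because TTTAAA reads the same on both strands, such a match counts once per promoter. E2F letters (TTTGGCGC, TTTCCCGC, TTTCGCGC or TTTGCCGC) were present in 2 of 23 G2/M promoters (8.70%) and 10 of 15 G1/S promoters (66.7%), against 3.33% of all promoters. CCAAT, the letters of the NF-Y site, occurred in 19 of 23 (82.6%) and 11 of 15 (73.3%), against 35.7% of all. Among the 6121 promoters of detected genes the shares were 15.1% for the homology region, 5.95% for E2F letters and 37.9% for CCAAT. A match describes the letters in this window and is not a site.

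The promoter stretches below were chosen because they show the 2 layouts in genes described further on. Capitals mark every match to these motifs on either strand, so that ATTGG is CCAAT and GCGGGAAA is TTTCCCGC on the other strand. In HMMR the CCAAT matches of the 2 strands overlap, and in MCM6 each TTTGGCGC overlaps a TTTCGCGC of the other strand.
CCNB1, chr5:69167050-69167149, plus strand: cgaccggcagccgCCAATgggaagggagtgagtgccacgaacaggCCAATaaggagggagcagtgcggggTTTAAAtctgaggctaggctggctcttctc
HMMR, chr5:163460532-163460631, plus strand: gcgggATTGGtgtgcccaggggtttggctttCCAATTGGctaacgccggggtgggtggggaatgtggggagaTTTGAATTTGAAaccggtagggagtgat
KIF23, chr15:69414249-69414348, plus strand: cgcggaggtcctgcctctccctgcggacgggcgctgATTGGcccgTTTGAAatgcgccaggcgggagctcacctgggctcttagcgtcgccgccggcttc
MCM6, chr2:135876484-135876603, minus strand: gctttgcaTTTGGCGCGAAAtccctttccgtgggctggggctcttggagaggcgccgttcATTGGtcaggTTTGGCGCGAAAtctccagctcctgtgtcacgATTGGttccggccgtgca
PCNA, chr20:5126623-5126722, minus strand: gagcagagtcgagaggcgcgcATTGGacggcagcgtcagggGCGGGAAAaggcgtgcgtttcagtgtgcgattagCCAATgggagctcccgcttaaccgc
The stretches end at the base before the start of the gene, except that of MCM6, which covers bases -160 to -41. In each of the 3 G2/M promoters shown a homology region match lies within the last 55 bases before the start, downstream of CCAAT.

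None of the 40 detected members differed 2-fold in any comparison, and the 8 that were not detected could not be judged. A gene was counted as past the large size rule when its pool means differed by at least 1 (log2), every array of the higher pool exceeded every array of the lower one, and the higher pool read at least 5 on each array. By that rule 0.619% of the detected genes were higher and 0.0963% lower in treated against control. The shares were 0.275% and 0.0550% for treated against opposite-side, and 0.234% and 0.165% for opposite-side against control. A count of 0 among 40 genes is near these shares. For scale, the heat-induced chaperone gene HSPA6 stood at 8.71 in the treated, 5.82 in the opposite-side and 4.85 in the control pool.

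Smaller differences were read with a small size rule, the same as the large one but with a minimum difference of 0.3 (1.23-fold). Arrays of the same pool differed by less than 0.3 for all 40 detected members, by at most 0.27 (CCNE1, treated pool), and their median absolute difference was 0.030 to 0.047. Among all detected genes, 1.09% to 2.34% differed by 0.3 or more within a pool. How far separate tumours of a group differ cannot be measured from pools.

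**Figure D1:**
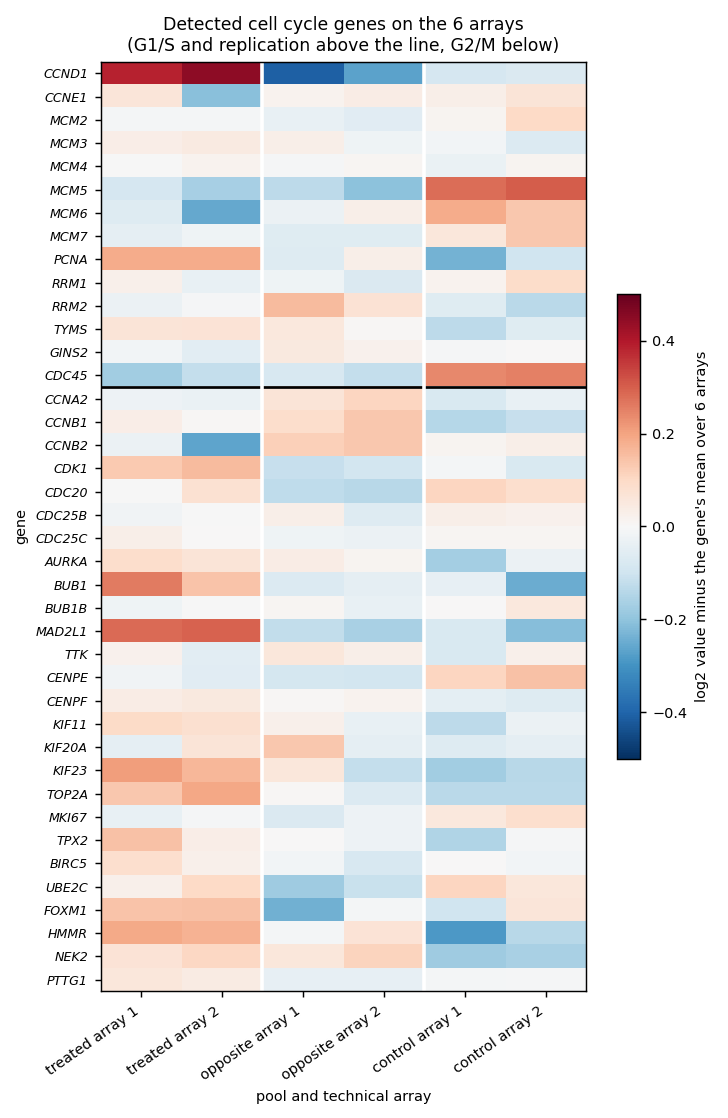
Log2 value of each of the 40 detected members on the 6 arrays, minus the gene's own mean over the arrays, in colour from -0.5 to 0.5, with treated, opposite-side and control arrays from left to right. CCND1 and MAD2L1 are highest on both treated arrays, while MCM5 and CDC45 are highest on both control arrays.

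In the treated pool, set against the control pool, 5 of 26 detected G2/M genes were past the small rule and higher (19.2%), and 0 were lower. Of all detected genes 11.4% were higher and 11.3% lower by that rule. The 14 detected G1/S and replication genes were split, with 2 higher (14.3%) and 3 lower (21.4%). The median difference was 0.08 for the G2/M genes, -0.04 for the G1/S and replication genes and -0.02 for all detected genes. A difference above 0 was measured for 19 of 26 G2/M genes (73.1%) and 6 of 14 G1/S and replication genes (42.9%), against 46.4% of all detected genes. These counts describe the pools, and no test separates the classes.

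Of the G1 regulators, CCND1 differed by most. It encodes cyclin D1, the partner of CDK4 and CDK6 in early G1, and it stood at 8.62 and 8.68 on the treated arrays, 7.82 and 7.96 on the opposite-side arrays and 8.15 and 8.16 on the control arrays. Treated arrays were highest and opposite-side arrays lowest, and the 3 pools did not overlap. The treated pool was 1.41-fold above control (difference 0.49) and 1.69-fold above the opposite-side pool (0.76). Its other probe set at or above 5 gave 0.49 and 0.58 for these 2 differences. Opposite-side minus control was -0.26 on the first probe set and -0.09 on the other, neither past the small rule.

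Of the cyclin E genes, whose products bring CDK2 into play at the G1/S boundary, CCNE1 alone was detected. CCNE1 was at 5.30 and 5.03 on treated, 5.26 and 5.27 on opposite-side and 5.27 and 5.30 on control arrays, so the pools overlapped. CCNE2 lay far below the detection level, at 3.15 and 3.09 on treated, 2.94 and 3.10 on opposite-side and 2.95 and 2.68 on control arrays. E2F1, the transcription factor at the head of the S phase genes, was also below it, at 4.22 and 4.20 on treated, 4.03 and 4.12 on opposite-side and 4.08 on both control arrays. A probe set below the level gives no reading of whether the gene was changed.

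Of the 6 MCM genes, whose products form the helicase loaded when origins are licensed, 2 passed the small rule in the treated pool, both lower than in control, where 11.3% of all detected genes were lower. MCM5, a subunit of the MCM helicase, was at 6.80 and 6.71 on treated and 6.75 and 6.68 on opposite-side arrays, against 7.16 and 7.18 on control arrays. Both pools from treated animals lay below control, by 0.42 for the treated and 0.46 for the opposite-side pool. With the arrays scaled on spike-in controls the second was 0.29, short of the rule. The second MCM5 probe set, at 5.13 in the treated, 5.10 in the opposite-side and 5.14 in the control pool, did not show it, with differences of -0.01 and -0.04. MCM5 therefore rests on 1 of 2 probe sets.

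MCM6, from the same helicase, was at 7.27 and 7.07 on treated, 7.30 and 7.36 on opposite-side and 7.52 and 7.47 on control arrays, a difference of -0.32 for treated minus control and -0.16 for opposite-side minus control. The first lies close to the minimum, and the 2 treated arrays differ by 0.19. Without treated replicate 2 it was -0.22 and without control replicate 1 it was -0.29, so either array decides whether it passes. MCM2, MCM3, MCM4 and MCM7 differed between treated and control by -0.07, 0.08, 0.02 and -0.13, and none was past the rule. On the second MCM7 probe set both pools from treated animals were lower than control, by 0.25 and 0.22.

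Of the loaders of the helicase, the members ORC1, CDC6 and CDT1 could not be judged, since they were not detected. ORC2 and ORC5, which are not members, were detected and are given further on. ORC1 was at 2.37, the lowest value in the table, on all arrays, and CDC6 between 4.76 and 4.90. CDT1 was at 4.50 and 4.90 on treated, 3.84 and 3.94 on opposite-side and 4.89 and 4.80 on control arrays. Its opposite-side arrays were thus lowest, but its other probe set lay at 3.92 to 4.30 with overlapping pools.

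Of the 2 genes that start the helicase, CDC45 was lower in both pools from treated animals, though for the opposite-side pool not with spike-in scaling (-0.17). Of all detected genes, 11.3% were lower than control by the rule in the treated and 13.3% in the opposite-side pool. CDC45 was at 5.78 and 5.84 on treated and 5.88 and 5.84 on opposite-side arrays, against 6.20 and 6.21 on control arrays. Control was 1.31-fold above treated (difference -0.39) and 1.27-fold above opposite-side (-0.34). GINS2, a subunit of the GINS complex, did not move with it and differed by -0.03 and 0.04.

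Of the 4 members that act at the replication fork or in nucleotide supply, PCNA alone passed the rule on its probe set of highest mean. It was higher in treated than in control, where 11.4% of all detected genes were. PCNA, the sliding clamp of the DNA polymerases, was at 9.43 on both treated arrays, 9.18 and 9.27 on opposite-side and 9.01 and 9.14 on control arrays. Treated minus control was 0.35, or 1.28-fold, and treated minus opposite-side 0.20. Without control replicate 1 the first was 0.28, short of the rule, so that array decides it. RRM1 and RRM2, the subunits of ribonucleotide reductase, differed between treated and control by -0.06 and 0.08, and TYMS, the thymidylate synthase, by 0.16. The second RRM2 probe set gave 0.33, past the rule, and the second TYMS probe set -0.05.

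**Figure D2:**
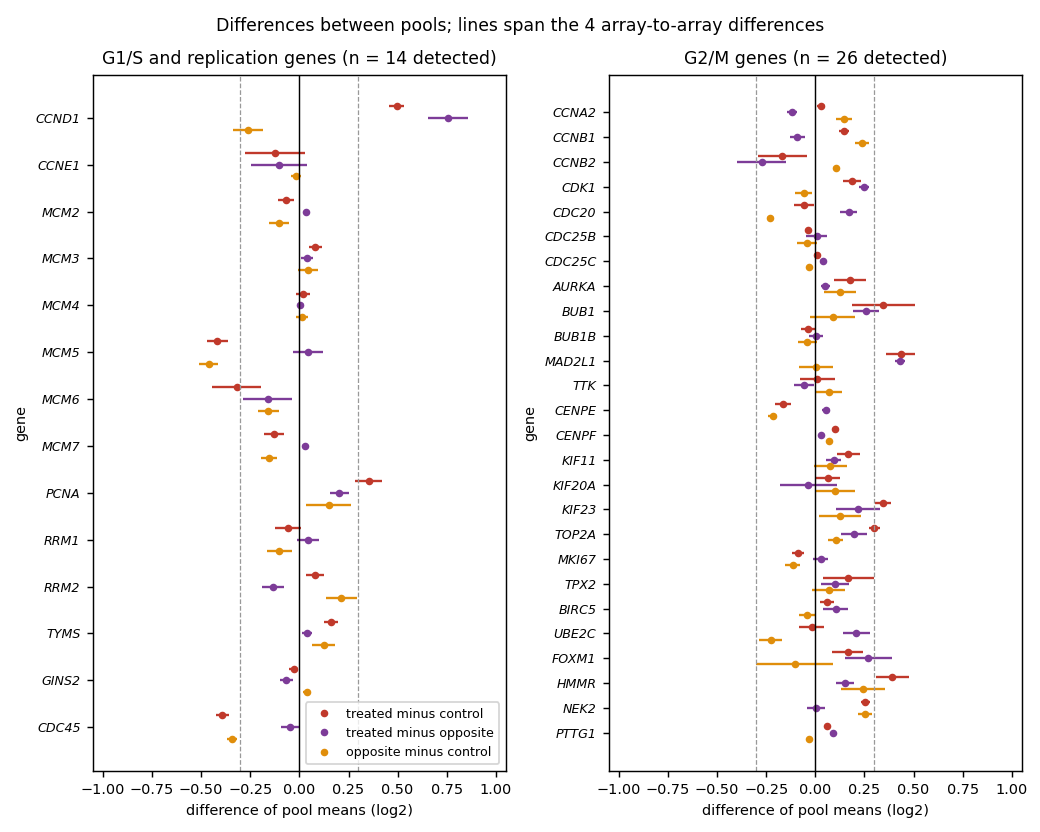
Differences of pool means (points, log2) for the 14 detected G1/S and replication genes on the left and the 26 detected G2/M genes on the right, in red for treated minus control, purple for treated minus opposite-side and orange for opposite-side minus control, with lines over the 4 array-to-array differences and dashed lines at -0.3 and 0.3. Treated minus control and treated minus opposite-side lie at 0.49 and 0.76 for CCND1, and MCM5 and CDC45 lie below -0.3 in both comparisons with control.

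On the probe sets of highest mean, none of the 7 genes of the mitotic trigger passed the small rule in any comparison. Other probe sets of CDK1 and CCNB1 did, as given below. Of all detected genes, 11.4% were higher and 11.3% lower by that rule in treated against control. The shares were 11.0% and 6.58% for treated against opposite-side, and 8.89% and 13.3% for opposite-side against control. So few genes say little beside these shares. CCNA2 (cyclin A2) was at 7.29 and 7.28 on treated, 7.38 and 7.42 on opposite-side and 7.24 and 7.27 on control arrays. CCNB1 (cyclin B1) was at 8.17 and 8.14 on treated, 8.22 and 8.27 on opposite-side and 8.00 and 8.02 on control arrays. Both were highest in the opposite-side pool on these probe sets, with differences from control of 0.15 and 0.24. CCNB2, the other B cyclin, was at 8.06 and 7.83 on treated, 8.21 and 8.22 on opposite-side and 8.10 and 8.12 on control arrays, lowest on the treated arrays, which differed from each other by more than opposite-side and control did.

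CDK1, the kinase these cyclins activate, was at 8.62 and 8.65 on treated, 8.38 and 8.40 on opposite-side and 8.48 and 8.42 on control arrays. The treated pool was highest, by 0.19 over control and 0.25 over opposite-side. FOXM1, a transcription factor of the G2/M genes, was at 5.96 on both treated arrays, 5.57 and 5.81 on opposite-side and 5.72 and 5.88 on control arrays. Its treated arrays were highest too (by 0.17 and 0.27), but the opposite-side and control arrays overlapped. The phosphatase genes CDC25B and CDC25C, whose products activate CDK1, differed by -0.04 to 0.04 in all comparisons.

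The CDK1 probe sets at or above 5 disagreed on the opposite-side pool. The 2 other CDK1 probe sets were 0.36 and 0.42 higher in the opposite-side than in the control pool, both past the small rule, whereas the one with the highest mean gave -0.06. For treated minus control the 3 gave 0.27, 0.49 and 0.19. The second CCNB1 probe set was at 6.18 in the treated, 5.87 in the opposite-side and 6.03 in the control pool, so that the opposite-side pool was lowest on it. It passed the rule for treated minus opposite-side (0.31, against -0.09 on the first).

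The spindle checkpoint holds anaphase back until all chromosomes are attached, and 2 of its 4 genes passed the rule and were higher in the treated pool, where 11.4% of all detected genes were. MAD2L1, which encodes the checkpoint protein MAD2, was at 7.78 and 7.79 on treated arrays, 7.37 and 7.33 on opposite-side and 7.42 and 7.28 on control arrays. The treated pool was 1.35-fold above each of the other pools (0.43 and 0.43), which overlapped. Its other probe sets lay below 5. BUB1, a checkpoint kinase, was at 5.95 and 5.84 on treated, 5.62 and 5.65 on opposite-side and 5.65 and 5.44 on control arrays.

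BUB1 was 1.27-fold higher in the treated pool than in the controls (0.35), and 0.26 higher than in the opposite-side pool. It was 0.29 without treated replicate 1 and 0.24 without control replicate 2, so either array decides its call. The remaining checkpoint genes, BUB1B and TTK, differed between treated and control by -0.04 and 0.01.

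Among the 5 genes of the spindle and of cytokinesis, HMMR and KIF23 passed the rule. Both were higher in treated than in control, where 11.4% of all detected genes were. HMMR, a spindle-associated hyaluronan receptor, was at 7.69 and 7.67 on treated, 7.49 and 7.57 on opposite-side and 7.21 and 7.36 on control arrays. The pools ran from treated down to control without overlap, and treated was 1.31-fold above control (0.39). Its second probe set gave 0.35, but its treated arrays, at 5.40 and 5.79, differed from each other by more than that. On it the opposite-side arrays were at 5.40 and 5.43, so they overlapped the treated ones, and the control arrays were at 5.32 and 5.18. KIF23, a kinesin of the central spindle, was at 5.54 and 5.50 on treated, 5.39 and 5.21 on opposite-side and 5.16 and 5.19 on control arrays.

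KIF23 was 1.27-fold higher in the treated pool than in the controls (0.34). The other spindle genes did not pass: KIF11, the motor that separates the poles, differed by 0.17, TPX2, which activates Aurora A, by 0.17 and KIF20A, a motor of cytokinesis, by 0.06. All 5 genes of this class had a positive difference from control in the treated pool, and all 5 in the opposite-side pool, where they ran from 0.07 to 0.24. Of all detected genes, 46.4% and 45.6% lay above 0 in these comparisons. KIF20A reached the detection level only in its opposite-side mean (5.03). Its lowest array-to-array differences from control were 0 and -0.001, so its sign is uncertain.

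TOP2A, the topoisomerase that untangles sister chromosomes, was at 9.34 and 9.40 on treated, 9.21 and 9.13 on opposite-side and 9.07 on both control arrays. Its treated minus control difference was 0.30, at the minimum itself, and its second probe set also gave 0.30. The call falls short without treated replicate 2 (0.27). For opposite-side minus control the 2 probe sets gave 0.10 and 0.40, the second past the rule. MKI67, whose protein Ki-67 is the usual stain for proliferating cells, differed by -0.09 on its highest probe set, which was at 8.19 and 8.22 on treated, 8.16 and 8.20 on opposite-side and 8.28 and 8.31 on control arrays. Its 3 other probe sets gave -0.01, 0.15 and 0.37, so the sign for MKI67 depends on the probe set. BIRC5 (survivin, of the chromosomal passenger complex) differed by 0.06.

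The remaining detected mitotic genes differed by less than 0.3. AURKA, the Aurora A kinase of the spindle poles, was 0.18 higher in the treated pool than in the controls, and NEK2, a centrosomal kinase, 0.25 higher in both pools from treated animals than in control. CENPE and CENPF, of the kinetochore, differed between treated and control by -0.16 and 0.10. CDC20, the activator of the anaphase-promoting complex, UBE2C, its ubiquitin-conjugating enzyme, and PTTG1, which encodes securin, differed by -0.06, -0.02 and 0.06. CDC20 and UBE2C were lowest in the opposite-side pool, 0.23 below control each. PLK1 stood at 2.54 on all arrays, while AURKB (4.61 to 5.12) and CENPA (4.68 to 4.91) lay near the detection level without reaching it in any pool mean.

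**Figure D3:**
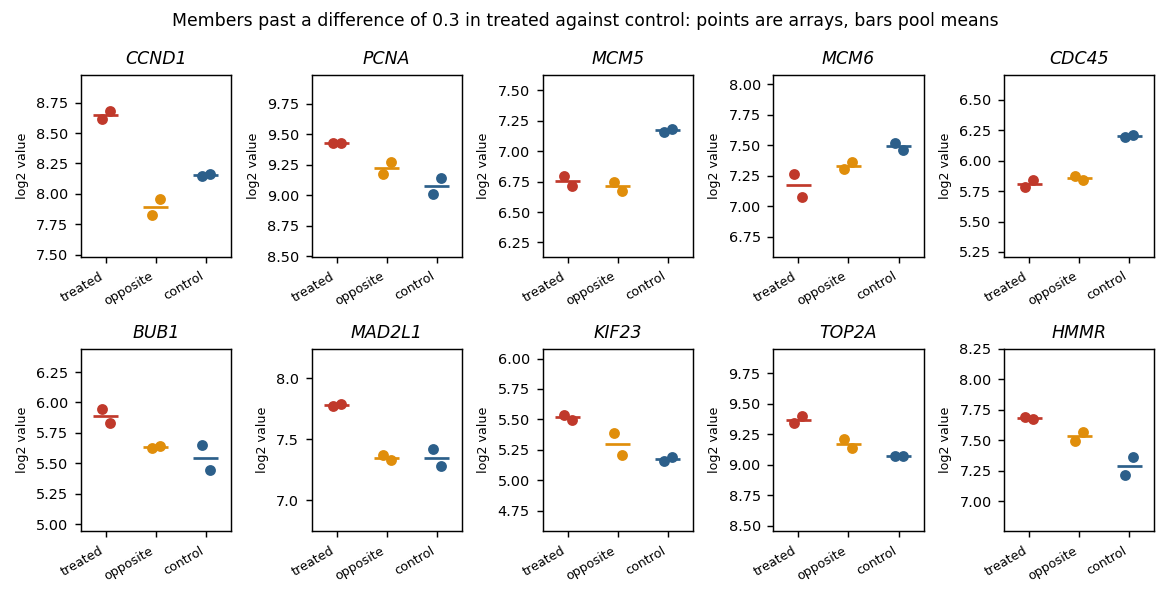
Log2 values of the 10 members past a difference of 0.3 in treated against control, with treated, opposite-side and control pools from left to right, a point for each array and a bar for the pool mean, all panels spanning 1.5 log2 units. In MCM5 and CDC45 the opposite-side arrays lie beside the treated ones, and in MAD2L1 they lie beside the control ones.

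Set against the opposite-side pool, the treated pool had 2 members past the small rule, CCND1 (0.76) and MAD2L1 (0.43), both higher, and 0 lower. Of all detected genes 11.0% were higher and 6.58% lower by that rule. Median differences were 0.03 for the 14 G1/S and replication genes, 0.07 for the 26 G2/M genes and 0.01 for all detected genes. Of the G2/M genes 21 of 26 (80.8%) lay above 0, against 53.2% of all detected genes. With the arrays set to the same median of 40 spike-in control probe sets, these medians turned to -0.16 for the G1/S, -0.12 for the G2/M and -0.18 for all detected genes, of which 246 were then higher and 1840 lower. That scaling used the shift of the array medians, 0.19 for treated minus opposite-side and 0.01 for treated minus control. The median of the differences of single spike-in probe sets was larger, at 0.33 and 0.105. Scaling on it was not tested. On other probe sets at or above 5, CCNB1 (0.31) and MKI67 (0.43) also passed for treated minus opposite-side. Of the 2 members, CCND1 (0.57) stayed past the rule with spike-in scaling and MAD2L1 (0.24) did not. The direction of the class medians in this comparison therefore flips with the scaling. Spike-in scaling moves all genes of an array by the same amount, so it cannot show whether the G2/M median differs from that of all genes. Without _x_at and _s_at probe sets the medians were 0.029 for the G2/M genes, 0.037 for the G1/S and replication genes and 0.016 for all detected genes.

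In the opposite-side pool, set against the control pool, 2 of 14 G1/S and replication genes were lower by the small rule. These were MCM5 (-0.46) and CDC45 (-0.34), and 0 of 26 G2/M genes were past it on their probe sets of highest mean. On other probe sets at or above 5, CDK1 (0.36 and 0.42) and TOP2A (0.40) were higher and past it. By that rule 8.89% of all detected genes were higher and 13.3% lower. The median difference was -0.06 for the G1/S and replication genes, 0.07 for the G2/M genes and -0.02 for all detected genes, and 45.6% of all detected genes lay above 0, beside 15 of 26 G2/M genes (57.7%). After spike-in scaling the G1/S median was 0.11, the G2/M median 0.24 and that of all genes 0.16. Of all genes, 1782 were then higher and 357 lower. Neither MCM5 (-0.29) nor CDC45 (-0.17) then passed, while some G2/M genes passed as higher, with their count given further on. The treated minus control and opposite-side minus control differences share the control arrays, so the low MCM5 and CDC45 values of the 2 comparisons are not separate observations.

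Probe sets of the same gene often disagreed. Of 98 probe sets that name 1 member, 55 were at or above 5, and 12 members had at least 2 of these. CCND1, HMMR and TOP2A passed the small rule for treated minus control on each of theirs, MCM5 on 1 of 2, and RRM2, CDK1 and MKI67 on a probe set other than the one with the highest mean. The remaining called members, PCNA, MCM6, CDC45, BUB1, MAD2L1 and KIF23, had 1 probe set at that level.

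**Figure D4:**
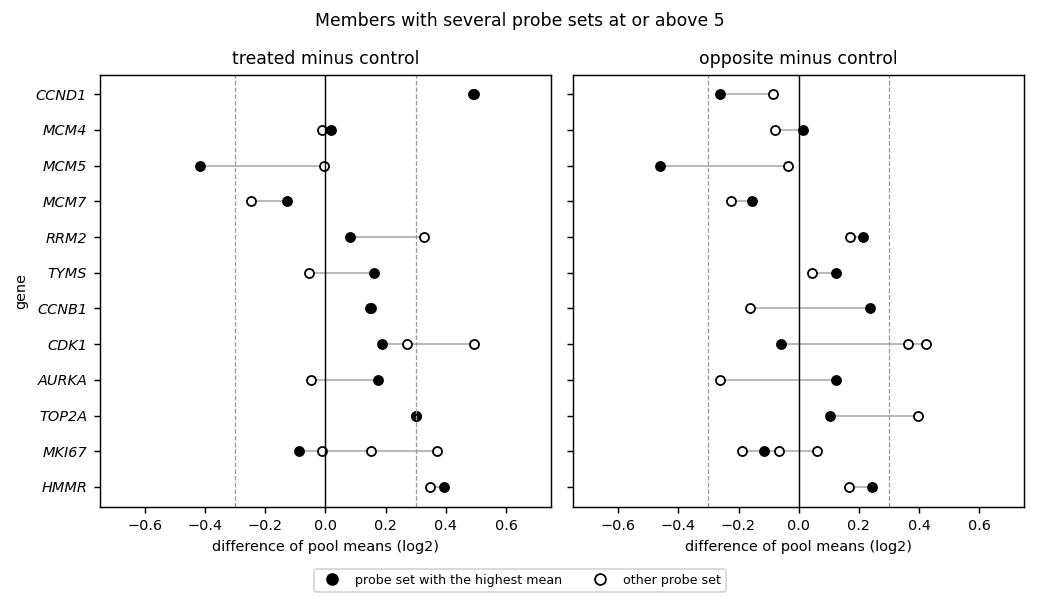
Differences of pool means (log2) for every probe set at or above 5 of the 12 members that have at least 2, with the probe set of the highest mean filled (on top where they coincide) and the others open, for treated minus control on the left and opposite-side minus control on the right. CCND1, TOP2A and HMMR have their probe sets close together in treated minus control, while those of CDK1, MKI67 and MCM5 spread there by 0.3 or more.

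Other genes of the same processes were read from lists of their own. Among 15 detected brakes of the cycle, treated against control, 0 were lower and 3 higher, namely PLK2 (0.48), RB1 (0.38), which encodes the retinoblastoma protein, and BTG1 (0.33). That is 20.0% higher, against 11.4% higher and 11.3% lower among all detected genes. The median of that list was 0.16. CDKN1A, which encodes the CDK inhibitor p21, differed by 0.28 and was not past the rule. Against the opposite-side pool CCNG2 (-0.49) and CDKN1B (-0.41), which encodes the inhibitor p27, were lower in the treated pool, and CHEK2 (0.41), a checkpoint kinase, and RB1 (0.35) were higher. CCNG2, a cyclin linked to arrest, stood out in the opposite-side pool, at 8.45 in the treated, 8.95 in the opposite-side and 8.29 in the control pool. In the opposite-side minus control comparison PLK2 (0.44) was higher too and CHEK2 (-0.37, with the opposite-side pool at 4.97, just below the detection level) lower. The shares of all detected genes were 11.0% higher and 6.58% lower in treated minus opposite-side, and 8.89% and 13.3% in opposite-side minus control. Spike-in scaling gave 0 higher and 3 lower brakes for treated minus opposite-side, beside 246 and 1840 of all 7312 genes then detected. For opposite-side minus control it gave 8 higher and 0 lower, beside 1782 and 357.

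Of 40 other detected G1/S and replication genes, treated against control, 4 were higher and 4 lower, 10.0% each way and near the 11.4% and 11.3% of all detected genes. CDK6, a kinase partner of cyclin D1, was higher by 0.54, whereas RPA2, of the single-strand binding complex RPA, was lower by 0.53, POLA2, of the primase complex, by 0.38 and ORC2, of the origin recognition complex, by 0.37. CDK6 was at 8.21 in the treated, 7.55 in the opposite-side and 7.67 in the control pool. Against the opposite-side pool 7 (17.5%, against 11.0% of all detected genes) were higher and 0 (against 6.58%) lower, with ORC5, of the origin recognition complex, at 0.77, CDK6 at 0.66, RFC4, of the clamp loader, at 0.44 and CDK2 at 0.43. The opposite-side pool had 0 higher (against 8.89%) and 7 lower than control (17.5%, against 13.3%), with ORC5 at -0.78, RPA2 at -0.68, POLD1, the catalytic subunit of polymerase delta, at -0.53 and BRCA1, which acts in repair of broken DNA, at -0.47. ORC5 in the opposite-side pool (4.54) and RPA2 in the treated and opposite-side pools (4.61 and 4.46) lay below the detection level, so the sizes of their differences are uncertain. The list median was -0.03 for treated minus control, 0.09 for treated minus opposite-side and -0.14 for opposite-side minus control. With spike-in scaling the last 2 were -0.10 and 0.03, so their directions flip, and the counts became 2 higher and 7 lower in treated minus opposite-side and 4 higher and 4 lower in opposite-side minus control, beside the all-gene counts just given.

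Of 51 other detected G2/M genes, treated against control, 5 were higher and 2 lower (9.80% and 3.92%, against 11.4% and 11.3% of all detected genes), with a median of 0.14. FAM83D, which encodes a spindle protein, was at 5.31 in the treated, 4.45 in the opposite-side and 4.28 in the control pool, the last 2 below the detection level. PLK4, the kinase of centriole duplication, was higher by 0.59, with its control pool at 4.79, below that level, and ANLN (anillin, of the cleavage furrow) by 0.41, and the kinesin gene KIF22 was lower by 0.51. In treated minus opposite-side 6 were higher and 0 lower (11.8% and 0%, against 11.0% and 6.58%), FAM83D (0.87), SGO2 (0.51), which protects centromeric cohesion, the condensin gene NCAPD2 (0.36) and ECT2 (0.32) leading. In opposite-side minus control 5 were higher and 2 lower (9.80% and 3.92%, against 8.89% and 13.3%), among them CKAP2 (0.43), the centromere gene CENPU (0.40), SGO2 (-0.37) and KIF22 (-0.36). Spike-in scaling turned these counts to 2 higher and 10 lower for treated minus opposite-side (all genes, 246 and 1840) and 17 higher and 0 lower for opposite-side minus control (1782 and 357).

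Some markers of host tissue and of RNA quality differed between the pools. Whether the tissue markers were read from human tumour cells or mouse host cells was not tested. Of 8 fibroblast and matrix markers 4 were detected, and the summed level of the list (log2) was 9.65 to 9.68 on treated, 9.41 to 9.44 on opposite-side and 8.53 to 8.67 on control arrays. Treated minus control was 1.66 for TAGLN, 1.14 for VIM and 0.67 for COL1A1, but 0.01 for FN1, the other detected gene of the list. PDGFRB was at or near the lowest value throughout. The 8 skeletal muscle markers, 4 of them detected, summed to 8.28 to 8.33 on treated, 8.02 on opposite-side and 7.96 to 8.00 on control arrays.

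The muscle list did not move as 1 group. ACTA1, the skeletal actin, was at 5.27 in the treated, 4.11 in the opposite-side and 3.10 in the control pool. MYL11, a myosin light chain, was at 6.65 in the treated, 5.89 in the opposite-side and 5.05 in the control pool. TNNT1, a troponin, ran the other way, with treated minus control at -0.45, past the rule. TNNT3 differed by 0.06 and CKM was near the lowest value. FLT1, the 1 detected marker of endothelium out of 5, differed by -0.04 between treated and control, and LYZ, the 1 detected of leukocytes, by 0.23. LYZ was at 11.8 in the treated, 11.7 in the opposite-side and 11.6 in the control pool. PTPRC, CD14 and ITGAM, of the same list, lay below the detection level on all arrays. LYZ alone therefore gives no measure of leukocytes. Of 11 colon epithelium markers 8 were detected, the list summing to 15.1 on treated and opposite-side arrays and 15.0 on control arrays, while CDX1 and CDX2, markers of intestinal cells, were at 2.37 and 2.53.

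The 5′ probe set of ACTB differed by 1.12 for treated minus control, -0.16 for treated minus opposite-side and 1.28 for opposite-side minus control. That of GAPDH differed by -0.46, -0.45 and -0.01 in the same comparisons, so it was low in the treated pool. The 3′ probe sets differed by 0.23, 0.08 and 0.15 for ACTB and by -0.03, -0.03 and 0.0005 for GAPDH. Whether the 5′ shifts come from RNA quality or from transcript level was not tested. The part of these shifts in the differences of the cell cycle genes was not tested.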

How the data were processed

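Total RNA of macrodissected xenograft sections was pooled by group, labelled with biotin and hybridised to 6 1-colour arrays, 2 per pool, per the labels. The authors deposited 1 log2 value for each of 54675 probe sets, made with GCRMA per the submitters' processing notes (version not given in the sources used here). That the deposited values are log2 was judged from their range, whose lowest value is 2.37. As GCRMA sets all arrays to 1 distribution, a shift common to most genes of a pool would be removed.

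From these values, 41097 probe sets that name 1 gene (41043 matched by Entrez identifier) gave 19775 genes, each read from the probe set of highest mean. Pool means are means of 2 arrays on the log2 scale, and differences were judged by the size rules stated in the report, since 1 pool per group allows no test. Members and lists were chosen with earlier results of these data known. All 48 members could be named, and of each other list up to 4 genes with the largest difference past the small rule in each comparison. Probe sets naming several genes were left out. The alternatives were other detection levels, minimum differences, probe set choices, normalizations and averaging, no required agreement of array pairs, leaving out each array, and the technical replicate number as a block. Gene symbols and promoters are those of RefSeq (GRCh38.p14). Computation used Python 3.11.15 with pandas 2.3.3, numpy 2.4.6 and matplotlib 3.10.9.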

Additional observations from a re-analysis of the deposited data

How the results depend on the processing

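No member passed the large size rule under any alternative for which it was counted. For treated minus control the count of higher G2/M genes (5) was 3 at a detection level of 6, 3 without _x_at and _s_at probe sets, 1 with the mean of all probe sets and 0 at a minimum of 0.5. The count of lower G1/S and replication genes (3) was 1 in both probe set alternatives and 0 at 0.5, and that of higher ones (2) was 0 at 0.5. The G2/M median (0.08) was 0.12 at level 4, 0.11 in both probe set alternatives and 0.10 with quantile normalization. The G1/S median (-0.04) was 0.08 without _x_at and _s_at probe sets, on the other side of 0.

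For treated minus opposite-side the G1/S median (0.03) was 0.011 with the mean of probe sets, 0.0085 with equal array medians and -0.16 with spike-in scaling. The G2/M median (0.07) was 0.0895 at level 6, 0.093 with the mean of probe sets, 0.029 without _x_at and _s_at probe sets, 0.049 with equal medians, 0.051 with quantile normalization and -0.12 with spike-in scaling. Higher G1/S genes (1) became 2 at level 4 and at a minimum of 0.2. Higher G2/M genes (1) became 6 at 0.2, and 0 at 0.5, with the mean of probe sets and with spike-in scaling. Lower genes (0) became 2 in each class with spike-in scaling and 1 among G2/M genes at 0.2.

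For opposite-side minus control the G1/S median (-0.06) was -0.0285 at level 4, -0.10 at level 6, 0.003 with the mean of probe sets, -0.0195 without _x_at and _s_at probe sets, -0.026 with equal medians, -0.0175 with quantile normalization and 0.11 with spike-in scaling. The G2/M median (0.07) was 0.026 with the mean of probe sets, 0.10 with equal medians and 0.24 with spike-in scaling. Lower G1/S genes (2) became 1 with the mean of probe sets and 0 without _x_at and _s_at probe sets, with spike-in scaling and at 0.5. Higher G1/S genes (0) became 2 with spike-in scaling and 1 at 0.2. Higher G2/M genes (0) became 6 with spike-in scaling, 3 at 0.2 and 1 without _x_at and _s_at probe sets, and lower ones (0) became 3 at 0.2. The cause of these changes was not tested.

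Leaving out each array in turn moved the treated minus control medians between -0.065 and -0.0015 (G1/S) and between 0.077 and 0.11 (G2/M). The treated minus opposite-side medians lay between 0.012 and 0.036 (G1/S) and between 0.042 and 0.097 (G2/M), and the opposite-side minus control medians between -0.084 and -0.032 (G1/S) and between 0.022 and 0.0705 (G2/M). In treated minus control 1 to 2 G1/S genes were then higher and 2 to 3 lower, and 4 to 5 G2/M genes higher. For treated minus opposite-side 1 to 3 G2/M genes were higher (3 without treated replicate 2, and 2 without either opposite-side array) and 0 to 1 lower. For opposite-side minus control 2 to 3 G1/S genes were lower and 0 to 1 G2/M genes higher. Of the values of single called genes under an alternative, 154 stayed past the rule, 26 did not and none changed sign. The other detection levels and the technical replicate number as a block cannot change the difference of a gene. These counts therefore do not measure how robust the calls are.

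Removing the mean of each technical replicate number (a replicate block) leaves every pool mean as it was, so the medians could not move. It can change only the agreement of array pairs and the level on each array. It moved no call of a member, and the count of higher G2/M genes for treated minus control stayed at 5. Deviations of same-numbered arrays correlated between pools at -0.0070 to 0.014 over 12992 probe sets, so the arrays share only a number.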

Other observations

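One probe set outside the counts names CENPA, the histone variant of the centromere, together with SLC35F6. It was at 6.77 and 6.65 on treated, 6.44 and 6.47 on opposite-side and 6.30 and 6.41 on control arrays, so that the treated arrays were highest by 0.35 over control and 0.25 over opposite-side. Which of the 2 genes it reports was not tested. The CENPA probe set that names 1 gene differed by 0.13 between treated and control, below the detection level in each pool.

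Of 11 detected subunits and activators of the anaphase-promoting complex, the ubiquitin ligase that ends mitosis, 1 was higher and 1 lower in the treated pool in both comparisons (9.09% each way, near the all-gene shares of 11.4% and 11.3% against control and 11.0% and 6.58% against opposite-side). ANAPC4 was at 5.96 in the treated, 6.34 in the opposite-side and 6.45 in the control pool, and ANAPC15 at 5.74, 5.30 and 5.34 in the same pools. In opposite-side minus control CDC26 (-0.39) and ANAPC7 (-0.30) were lower (18.2%, against 13.3% of all detected genes). The list median was -0.12 for treated minus control, and 1 of 11 genes (9.09%) lay above 0 there, against 46.4% of all detected genes. With spike-in scaling it was -0.13, with 1 higher and 2 lower.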
